A study of Macaca mulatta with 24 samples.

Results

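The genes that make, package, clear and break down GABA, and those that encode the metabotropic GABA-B receptor, were examined in the core of the nucleus accumbens (NAcc core) of rhesus macaques that had drunk ethanol or water for a year. The set held 7 genes, taken as the genes of the table whose symbol equalled GAD1, GAD2, SLC32A1, SLC6A11, ABAT, GABBR1 or GABBR2, out of 17208 genes in all. Each of the 7 had a mean of 1 TPM or more (a transcript level scaled to gene length and to the same total in every animal) over the 24 animals, the limit for testing, which 13637 genes passed.

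GABA is the main fast inhibitory transmitter of the brain, and the projection neurons that make up most of the striatum, the NAcc included, are themselves GABAergic. The enzymes GAD67 and GAD65, encoded by GAD1 and GAD2, make GABA from glutamate, the vesicular transporter VGAT (SLC32A1) loads it into synaptic vesicles, the transporter GAT-3 (SLC6A11), found mainly on astrocytes, takes it up again, and GABA transaminase (ABAT) breaks it down. The GABA-B receptor is a G protein-coupled receptor that works as a dimer of GABBR1, which binds GABA, and GABBR2, which couples to the G protein. It is known in alcohol research as the target of baclofen.

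RNA-Seq had been carried out once for each of 24 unrelated adult male animals from 4 cohorts. Per the paper, their ages were 5 to 8 years, apart from 2 older LD* animals. The 16 drinkers had been induced to drink by schedule-induced polydipsia and then had 12 months of open access to 4% ethanol and water for most of each day, with tissue taken without imposed abstinence. The 8 controls lived in the same rooms under the same procedures, with water on both spouts and a maltose dextrin solution matched for calories. The drinkers were 8 animals labelled LD (LD*, which per the study's methods joins low and binge drinkers), 4 heavy drinkers (HD) and 4 very heavy drinkers (VHD), and HD* denotes the 8 HD and VHD animals together. Daily ethanol intake was 0.47 to 2.07 g/kg in LD*, 2.74 to 3.09 g/kg in HD and 3.09 to 3.78 g/kg in VHD animals. By cohort, the controls numbered 3 in cohort 5, 2 in 7a and 3 in 7b, the LD* animals 2 in cohort 4, 3 in 7a and 3 in 7b, and the HD* animals 4 in cohort 5 and 4 in 7a. The animals are separate individuals, so the spread between them is biological as well as technical.

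The dissected tissue had the markers of striatum in every animal but in unequal amounts. The summed level of 11 striatal projection neuron markers (PPP1R1B, DRD1, DRD2, PENK and others) ranged from 828 to 11729 TPM, and the lowest value, in control 6, was followed by 2762 TPM in control 8. Control 6 also correlated least with the other animals (median r = 0.88, against a median of 0.96 over all animals). The summed level of 4 cortical excitatory neuron markers ranged from 1.42 TPM in HD 3 to 834 TPM in LD 4. The median TPM over genes was lowest in VHD 4 and VHD 3, at 7.39 and 9.34, and highest in VHD 2, at 13.6. The number of reads behind a TPM value is unknown, so no counting error can be given. In bulk tissue, fewer cells of a type and less RNA per cell cannot be told apart, and this holds for every level below.

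Among the members, GABBR1 was the most abundant and GABBR2 the least. On the TPM scale, the mean level over 24 animals was 531 ± 110 for GABBR1, 294 ± 108 for SLC32A1, 278 ± 42.6 for ABAT, 229.5 ± 84.9 for GAD2, 214 ± 65.5 for GAD1, 66.0 ± 71.5 for SLC6A11 and 36.4 ± 21.4 for GABBR2 (mean ± SD). The order was firm at its top, where GABBR1 exceeded SLC32A1 in 24 of 24 animals. The next 4 genes were not separated by their spread, since SLC32A1 exceeded ABAT in 12 animals, ABAT exceeded GAD2 in 14 and GAD2 exceeded GAD1 in 16. GAD1 lay above SLC6A11 in 23 of 24 animals, the exception being control 6, and SLC6A11 lay above GABBR2 in 18.

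The members differed widely in how much they varied from animal to animal. ABAT was the steadiest, with a highest level 1.78 times its lowest, and its within-group SD of 0.22 on the log2 scale stood at the 17.4th percentile of the 13637 genes. SLC6A11 varied most, 13.9-fold between animals, with an SD of 0.92 at the 98.3rd percentile. GABBR2 followed with a 9.62-fold range and an SD of 0.76 at the 96.2nd percentile, while its partner GABBR1 ranged 2.11-fold with an SD of 0.33 at the 53.7th percentile. The synthesis and packaging genes lay between, with a 4.00-fold range for GAD1, 3.90-fold for GAD2 and 3.75-fold for SLC32A1.

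**Figure D1:**
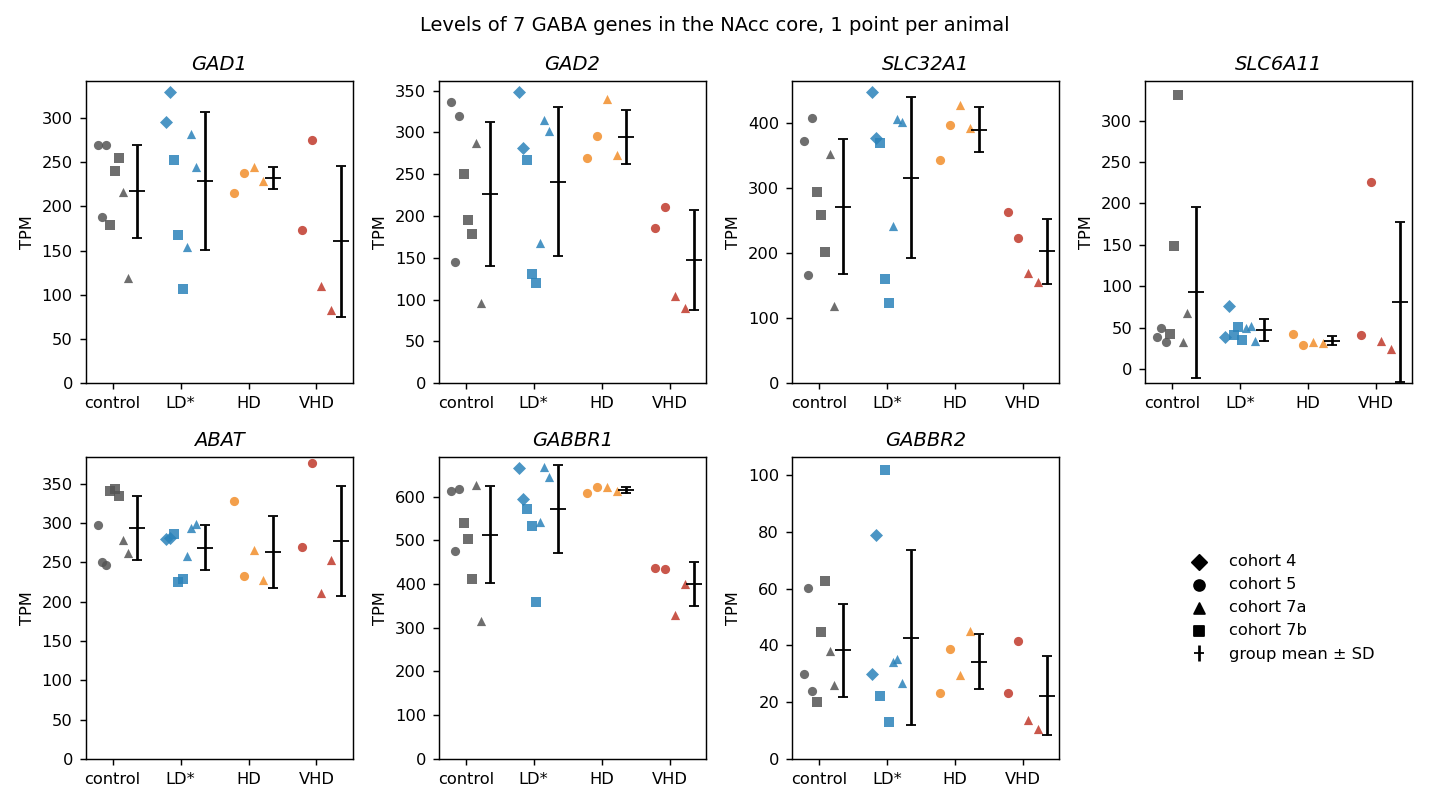
Level of each member in TPM (vertical axis) in every animal by group (horizontal axis), with the symbol marking the cohort and the bar the group mean ± SD. HD animals are tightly grouped for GABBR1 (607 to 622 TPM) and lie above all VHD animals (330 to 437 TPM), whereas controls span both, and 2 animals, control 6 and VHD 2, stand far above the rest for SLC6A11.

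The first question was whether chronic drinking at a high level went with a different expression of these genes. HD* animals were not distinguishable from controls for any of the 7. In limma on log2(TPM + 1), no gene of 13637 passed an adjusted p of 0.05 (0%), 775 genes had an unadjusted p under 0.05 (5.68%), and none of those was a member. The paper, with DESeq2 on read counts, did call genes between HD* animals and controls, so the 0% belongs to the model and input used here. The log2 fold changes below are differences of mean log2(TPM + 1), HD* minus controls or as stated, and the median over all genes in this comparison was -0.12.

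For the synthesis enzymes, GAD1 ranged from 118 to 269 TPM in controls (median 228) and from 82.3 to 275 TPM in HD* animals (median 222). The groups overlapped throughout, and the difference was -0.20 (95% interval -0.72 to 0.31). GAD2 ranged from 95.6 to 337 TPM in controls (median 223) and from 89.4 to 339.9 TPM in HD* animals (median 240.0). Its difference was -0.058 (95% interval -0.68 to 0.56), a wide interval on both sides of 0. The vesicular transporter SLC32A1 ranged from 119 to 407 TPM in controls (median 276) and from 155 to 427 TPM in HD* animals (median 303), with a difference of 0.14 (95% interval -0.47 to 0.75).

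For uptake and breakdown, SLC6A11 was 33.0 to 331 TPM in controls (median 45.9) and 23.8 to 226 TPM in HD* animals (median 33.8). Each group held 1 animal far above the rest. The difference was -0.60 (95% interval -1.48 to 0.27; limma adjusted p = 0.706). ABAT was 247 to 343 TPM in controls (median 288) and 211 to 376 TPM in HD* animals (median 259), a difference of -0.13 (95% interval -0.36 to 0.098), the narrowest interval of the 7.

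For the receptor, GABBR1 was 316 to 627 TPM in controls (median 522) and 329.5 to 622 TPM in HD* animals (median 522). These ranges nearly coincide, and the difference was -0.019 (95% interval -0.35 to 0.31). GABBR2 was 20.1 to 62.5 TPM in controls (median 34.1) and 10.6 to 45.0 TPM in HD* animals (median 26.5), a difference of -0.46 (95% interval -1.19 to 0.27; limma adjusted p = 0.706).

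LD* animals were likewise not distinguishable from controls. No gene passed (0%), 387 had an unadjusted p under 0.05 (2.84%), and no member was among them. GAD1 in LD* animals was 107 to 329 TPM (median 248) and GAD2 was 119.7 to 348 TPM (median 274), with differences from controls of 0.035 and 0.098. SLC32A1 in LD* animals was 123 to 447 TPM (median 372), a difference of 0.20 (95% interval -0.41 to 0.80). These 3 genes showed the same shape within LD*, with 5 animals near the upper end and LD 4, LD 5 and LD 6 well below.

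In LD* animals SLC6A11 was 33.6 to 75.9 TPM (median 45.4), a difference from controls of -0.49, and the LD* group lacked the very high values seen in 2 controls. ABAT was 225 to 298 TPM in LD* animals (median 279.6), a difference of -0.13 (95% interval -0.36 to 0.11). GABBR1 was 359 to 667 TPM (median 584), a difference of 0.17 (95% interval -0.17 to 0.50). GABBR2 was 13.0 to 102 TPM (median 32.0), its widest range in any group, with a difference of -0.0094 (95% interval -0.74 to 0.72).

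Between HD* and LD* animals, again no gene passed (0%), with 147 at an unadjusted p under 0.05 (1.08%) and no member among them. The differences, HD* minus LD*, ran from -0.45 for GABBR2 to -0.0077 for ABAT. All 7 were below 0, beside a median of -0.084 over all genes. TMM rescaling (a trimmed mean of M-values sets each library's scale), which brought that median to -0.0079, turned SLC32A1 to 0.030 and ABAT to 0.079, and in HD* against controls it turned GAD2 to 0.077, ABAT to 0.0021 and GABBR1 to 0.12. The groups overlapped for every member in these 3 comparisons. Over all genes, groups without overlap made up 0% in both comparisons with controls and 0.00733% in HD* against LD*, the latter higher in HD*.

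**Figure D2:**
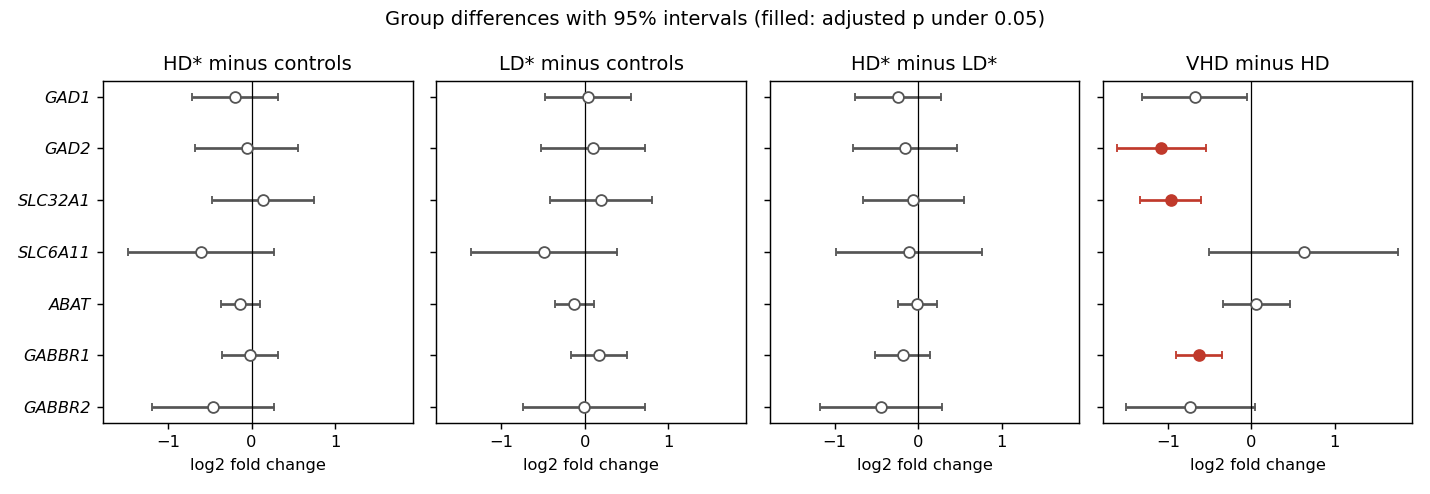
Log2 fold change of each member (points) with its 95% interval from limma (bars) in 4 comparisons, filled where the adjusted p was under 0.05. Every interval includes 0 in the comparisons of HD*, LD* and controls, and in VHD minus HD the points for GAD2 (-1.08), SLC32A1 (-0.97) and GABBR1 (-0.63) are filled.

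The second question was whether VHD animals differed from HD animals within the HD* group. Here GAD2, SLC32A1 and GABBR1 were lower in VHD animals, and GAD1, SLC6A11, ABAT and GABBR2 did not pass. In a limma model of these 8 animals, 1997 of 13637 genes passed (14.6%), of which 1556 were lower in VHD animals (11.4%) and 441 higher (3.23%). Leaving out 1 animal moved the count of 1997 from 476 without VHD 3 to 4651 without VHD 2. The 3 of 7 members that fell stand beside that 11.4%. Unadjusted, 4457 genes had a p under 0.05 (32.7%), with GAD1 as the fourth member. The median change over all genes was -0.17. After TMM rescaling the median was -0.019, and 2648 genes passed, 1583 lower and 1065 higher.

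SLC32A1 was 343, 397, 427 and 391 TPM in HD 1 to HD 4 and 263, 223, 169 and 155 TPM in VHD 1 to VHD 4. All VHD animals lay below all HD animals, as was so for 17.9% of genes, while 5.39% of genes were without overlap in the other direction. The mean fell from 389 ± 35.0 to 203 ± 49.8 TPM (SD, n = 4 each), a log2 fold change of -0.97 (SE 0.17; limma adjusted p = 0.00689).

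GAD2 was 269, 296, 339.9 and 273 TPM in HD 1 to HD 4 and 186, 211, 105 and 89.4 TPM in VHD 1 to VHD 4. The groups did not overlap. Its log2 fold change was -1.08 (SE 0.24; limma adjusted p = 0.0157). GAD2 lost its call when HD 3 or VHD 3 was left out (limma adjusted p = 0.0564 and 0.0667).

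GABBR1 was 607, 622, 622 and 612 TPM in HD 1 to HD 4 and 437, 435, 329.5 and 399 TPM in VHD 1 to VHD 4. HD animals were almost identical, with an SD of 7.18 TPM, and every VHD animal was lower. Its log2 fold change was -0.63 (SE 0.13; limma adjusted p = 0.0105), and after TMM rescaling it was -0.45 and no longer passed (limma adjusted p = 0.0711). For these 3 genes the exact two-sided permutation test over 70 assignments gave p = 0.0286, the smallest that 4 against 4 animals allow. The VHD values of GAD2, SLC32A1 and GABBR1 lay for the most part inside the range of the controls, the exception being GAD2 in VHD 4 (89.4 TPM, with a lowest control of 95.6 TPM).

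The other enzyme of synthesis, GAD1, was 215, 238, 244 and 229 TPM in HD 1 to HD 4 and 174, 275, 109.8 and 82.3 TPM in VHD 1 to VHD 4. VHD 2 was the highest of all 8 animals, so the groups overlapped, and the log2 fold change of -0.68 did not pass (SE 0.29; limma adjusted p = 0.128). Without VHD 2 it was -0.99 and passed (limma adjusted p = 0.00589). GABBR2 was 23.1, 38.9, 29.7 and 45.0 TPM in HD 1 to HD 4 and 23.3, 41.6, 13.8 and 10.6 TPM in VHD 1 to VHD 4, with a log2 fold change of -0.73 (limma adjusted p = 0.173). Among the fits without 1 animal it too passed only without VHD 2, at -1.09 (limma adjusted p = 0.0122). In the fit without VHD 2, 4651 of 13637 genes passed, 679 of them higher in VHD animals and the rest lower.

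The genes of uptake and breakdown gave values on the other side of 0. SLC6A11 was 42.1, 29.6, 33.2 and 31.6 TPM in HD 1 to HD 4 and 40.8, 226, 34.4 and 23.8 TPM in VHD 1 to VHD 4, a log2 fold change of 0.63 (limma adjusted p = 0.427) that turned to -0.067 without VHD 2. ABAT was 328, 232, 265 and 227 TPM in HD 1 to HD 4 and 269.6, 376, 211 and 253 TPM in VHD 1 to VHD 4, a log2 fold change of 0.061 (95% interval -0.34 to 0.46), which was -0.095 without VHD 2.

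The striatal projection neuron markers moved with these differences. Of the 11, 10 passed as lower in VHD animals, TAC1 being the exception, and none was at 0. Their summed level was 9110 to 10712 TPM in HD animals and 3401 to 6223 TPM in VHD animals, a log2 difference of -0.97 (exact permutation p = 0.0286), the same as that of SLC32A1. Markers of other cell types passed as higher in VHD animals, namely GFAP of 6 astrocyte markers (1.39), AIF1 of 4 microglial markers (1.11) and MBP of 6 oligodendrocyte markers (0.84; limma adjusted p = 0.0135, 0.00965 and 0.0465). The summed astrocyte level was 1769 to 3253 TPM in HD and 3917 to 6570 TPM in VHD animals. With the projection neuron score as a covariate no gene passed (1945 at an unadjusted p under 0.05), and the differences of GAD2, SLC32A1 and GABBR1 were -1.45, -0.89 and -0.53 (limma adjusted p = 0.349, 0.366 and 0.401). Since the marker sums of the 2 groups did not overlap, drinking category and marker level cannot be told apart in these 8 animals.

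The members were also set against the marker sum, in a comparison chosen after the data were seen. Per 1000 TPM of the summed projection neuron markers, SLC32A1 was 33.6, 43.5, 39.9 and 41.2 TPM in HD 1 to HD 4 and 43.9, 65.6, 33.5 and 24.9 TPM in VHD 1 to VHD 4. The geometric mean was 39.4 in both groups, although VHD animals alone spread widely around it. For GAD2 the geometric mean was 29.8 in HD and 27.5 in VHD animals, a log2 difference of -0.11 (exact permutation p = 0.83), and for GABBR1 it was 62.4 and 79.0, a difference of 0.34 (exact permutation p = 0.143). ABAT was 26.4 in HD and 53.9 in VHD animals (a log2 difference of 1.03, exact permutation p = 0.0286, 0.733 after adjustment over 28 comparisons). ABAT itself differed by 0.061 and the marker sum by -0.97, so any gene whose level was unchanged would give nearly this value. It is therefore no result about ABAT. The log2 differences were 1.60 for SLC6A11, 0.29 for GAD1 and 0.20 for GABBR2 (exact permutation p = 0.0571, 0.686 and 0.83). None of the 28 comparisons passed that adjustment.

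The median TPM over genes was 11.3 to 11.9 in HD animals and 7.39 to 13.6 in VHD animals. A fit added after the data were seen left out VHD 3 and VHD 4, which are among the 4 animals of lowest median TPM. VHD was then represented by 2 animals. Of 13637 genes, 606 passed, 166 of them higher in VHD animals and the rest lower. Among the lower genes were still GAD2, SLC32A1 and GABBR1, at -0.57, -0.68 and -0.50 (limma adjusted p = 0.0495, 0.0324 and 0.0328). In the same fit GAD1 was -0.081, GABBR2 -0.086, SLC6A11 1.48 and ABAT 0.29, and none of these passed (limma adjusted p = 0.798, 0.878, 0.138 and 0.362). The 2 cohorts of this comparison held 2 HD and 2 VHD animals each. SLC32A1 differed by -0.60 in cohort 5 and -1.33 in cohort 7a, GAD2 by -0.51 and -1.64, and GABBR1 by -0.49 and -0.77, in the same direction both times, though an exact permutation test of 2 against 2 animals cannot go below p = 0.333.

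Other genes of GABA metabolism and GABA-B signalling were read in the same model. Of 21 listed genes 19 were tested, the potassium channel genes KCNJ5 and KCNJ6 being below 1 TPM. In VHD against HD, 6 of the 19 were lower and none higher, beside 11.4% and 3.23% of all genes, and their median change was -0.55. Among the genes of metabolism, GLUL, the glutamine synthetase of astrocytes and the most abundant gene of the list, gave 0.49 and did not pass (limma adjusted p = 0.0947), nor did the glutamine carrier SLC38A2 at -0.76 (limma adjusted p = 0.0764).

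Of the other 2 GABA transporters in the list, SLC6A12 (BGT-1) fell from 19.6 to 10.3 TPM (log2 fold change -0.82, limma adjusted p = 0.0346), and SLC6A13 (GAT-2), at a mean of 3.6 TPM, gave 0.18. Of 4 proteins that bind the GABA-B receptor, 2 auxiliary subunits fell, KCTD8 from 20.1 to 11.0 TPM and KCTD16 from 15.9 to 8.37 TPM (log2 fold changes -0.81 and -0.92, limma adjusted p = 0.0379 and 0.0365). KCTD12, the most abundant of the auxiliary subunits at a mean of 52.7 TPM, gave -0.10. AJAP1 gave -0.55 and did not pass (limma adjusted p = 0.0996).

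Among the effectors of the receptor, GNAO1, which encodes the G protein subunit Go, fell from 386 ± 22.7 to 209 ± 34.8 TPM (log2 fold change -0.89, limma adjusted p = 0.00489). The GIRK channel gene KCNJ9 fell from 80.2 ± 9.48 to 50.7 ± 11.1 TPM (log2 fold change -0.67, limma adjusted p = 0.0237). The inhibitory G protein genes did not pass, with GNAI1 at -0.64 (limma adjusted p = 0.144) and GNAI2 at 0.058. In the comparisons of HD*, LD* and controls none of the 19 passed, KCNJ9 included (0.022 in HD* minus controls), which the paper lists as lower in HD* animals. The paper fitted DESeq2 to read counts and called many genes between HD* animals and controls. The limma fit on log2(TPM + 1) called no gene there, so KCNJ9 is not a lone difference between unlike models and inputs. The lowest unadjusted p was that of GNAI3, at a log2 fold change of -0.32 in HD* and -0.31 in LD* animals against the same controls (limma adjusted p = 0.706 and 1.00).

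Ratios of members within an animal do not depend on how its total was scaled. GAD1 to GAD2 was 0.718 to 1.42 over 24 animals. In HD animals it was 0.719 to 0.837 and in VHD animals 0.921 to 1.31, without overlap (log2 difference 0.40, exact permutation p = 0.0286, 0.275 after adjustment over 16 comparisons). SLC32A1 to GAD2 was the tightest ratio, from 1.03 to 1.73, with a geometric mean of 1.20 in controls and 1.38 in HD* animals (log2 difference 0.20, exact permutation p = 0.0343, 0.275 after adjustment). GAD1 to ABAT, synthesis against breakdown, had a geometric mean of 0.889 in HD and 0.531 in VHD animals (log2 difference -0.74, exact permutation p = 0.0571). None of the 16 comparisons passed after adjustment.

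The 2 receptor subunits were far from equal in their transcripts. GABBR2 to GABBR1 had a median of 0.0531 and ranged from 0.0265 in VHD 4 to 0.191 in LD 4. Between groups the ratio did not differ beyond its spread, with log2 differences of -0.46 for HD* and -0.18 for LD* animals against controls (exact permutation p = 0.195 and 0.662). The correlation of the subunits from animal to animal did not pass the test (r = 0.33, rho = 0.20, permutation p = 0.115 and 0.345), with r = 0.70 over the 9 animals of cohort 7a and -0.35 over the 7 of cohort 5.

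GAD2, SLC32A1 and GABBR1 varied together over the 24 animals, and ABAT was more loosely tied to both SLC6A11 and GAD1. GAD2 and SLC32A1 had r = 0.96 and rho = 0.96 (permutation p = 1e-05 each, the smallest that 100000 permutations can give), and r was 0.95 to 0.98 within cohorts 5, 7a and 7b. SLC32A1 and GABBR1 had r = 0.90 and rho = 0.91, and GAD2 and GABBR1 had r = 0.89 and rho = 0.91 (permutation p = 1e-05 each). GAD1 joined them less closely, with r = 0.87 and rho = 0.78 against GAD2 and r = 0.75 and rho = 0.62 against GABBR1. Without the 2 animals farthest from the median, r was 0.96 for GAD2 with SLC32A1, 0.85 for SLC32A1 with GABBR1, 0.87 for GAD2 with GABBR1 and 0.83 for GAD1 with GAD2. SLC6A11 and ABAT had r = 0.62 and rho = 0.52 (permutation p = 0.000570 and 0.0107), which was r = 0.44 without control 6 and VHD 2. Within cohorts 5, 7a and 7b that r was 0.78, 0.24 and 0.58. GAD1 and ABAT had r = 0.48 and rho = 0.53 (permutation p = 0.0183 and 0.00882), with r = 0.44 without VHD 4 and LD 5. SLC6A11 and GABBR2 had r = 0.49 and rho = 0.44 (permutation p = 0.0147 and 0.0341), with r = 0.48 without control 6 and VHD 2. After adjustment over the 21 pairs, r passed 0.05 in 10.

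**Figure D3:**
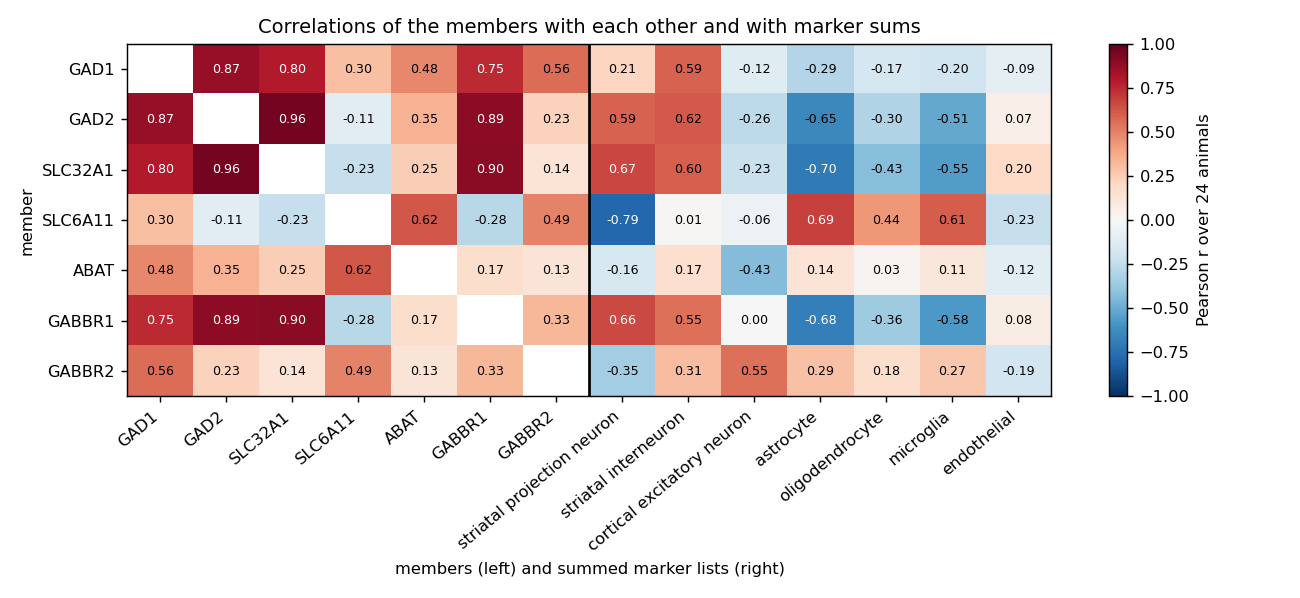
Pearson r over 24 animals of log2(TPM + 1) between members (left of the line) and between members and the log2 of summed marker lists (right of the line). GAD2, SLC32A1 and GABBR1 form a block at 0.89 to 0.96, and SLC6A11 has the opposite sign to that block against projection neuron and astrocyte markers.

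The marker lists set SLC6A11 apart from GAD2, SLC32A1 and GABBR1. SLC32A1 rose with the summed projection neuron markers (r = 0.67, rho = 0.78; permutation p = 0.000250 and 1e-05), and so did GABBR1 (r = 0.66, rho = 0.75) and GAD2 (r = 0.59, rho = 0.76). Without control 6 and control 8 these r values were 0.77, 0.67 and 0.71. SLC6A11 went the other way (r = -0.79, rho = -0.67; permutation p = 3e-05 and 0.000340), still at -0.62 without the same 2 animals, and was -0.83, -0.58 and -0.84 within cohorts 5, 7a and 7b. With the 6 astrocyte markers, SLC6A11 had r = 0.69 and rho = 0.65, whereas SLC32A1 had r = -0.70 and rho = -0.80. GAD1 gave r = 0.21 and rho = 0.30 against the projection neuron markers (permutation p = 0.311 and 0.157), with r = 0.45 without control 6. ABAT had an adjusted p above 0.05 against every list, and 17 of the 49 relations had an adjusted p for r under 0.05.

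GABBR2 was the 1 member whose r with the cortical excitatory neuron markers passed after adjustment. Its highest levels were 102 TPM in LD 4, 79.0 TPM in LD 2, 62.5 TPM in control 6 and 60.4 TPM in control 2. LD 4, control 2 and LD 2 had the highest sums of cortical excitatory neuron markers, at 834, 395 and 237 TPM, while control 6 had 8.49 TPM. Over 24 animals r was 0.55 and rho 0.44 (permutation p = 0.00553 and 0.0320, 0.0169 and 0.0871 after adjustment), and r was 0.36 without LD 4 and control 2. GABBR2 and GAD1 were also the members most closely tied to the median TPM of the library (r = 0.75 and 0.81, rho = 0.71 and 0.56). The part of marker content and of the median TPM in the levels of the members was not tested.

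**Figure D4:**
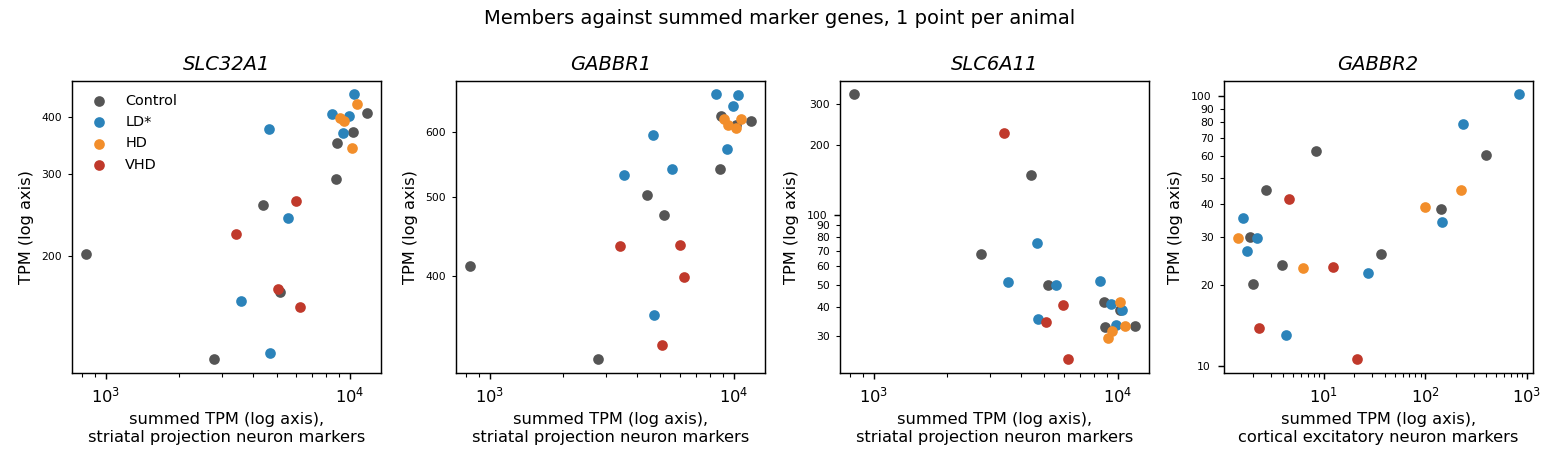
Level in TPM (vertical, log axis) against the summed TPM of a marker list (horizontal, log axis), 1 point per animal coloured by group, for SLC32A1, GABBR1 and SLC6A11 against 11 projection neuron markers and GABBR2 against 4 cortical excitatory neuron markers. SLC32A1 and GABBR1 rise with the projection neuron markers (r = 0.67 and 0.66), SLC6A11 falls (r = -0.79), and control 6 lies alone at the left at 828 TPM.

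Daily intake did not overlap between LD* and HD* animals, so its relation to the members was fitted within drinking groups. In a limma model of the 16 drinkers no gene passed (0%), and 1107 had an unadjusted p under 0.05 (8.12%), 752 of them falling (5.51%). GAD1, GAD2 and SLC32A1 were among the falling genes, at -0.71, -0.70 and -0.73 on the log2 scale for each g/kg (unadjusted p = 0.0221, 0.0456 and 0.0304; limma adjusted p = 0.498 each). GABBR1 gave -0.32, GABBR2 -0.68, SLC6A11 -0.19 and ABAT -0.082, and all 7 intervals but those of the first 3 included 0. Within HD*, intake was 2.74 to 3.09 g/kg in HD and 3.09 to 3.78 g/kg in VHD animals. The slopes are therefore not separate from the difference of VHD against HD, and the model held no cohort term.

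Within LD* alone, GAD1 was highest, at 329 TPM, in LD 2, which drank least (0.47 g/kg), and lowest, at 107 TPM, in LD 5, which drank most (2.07 g/kg). Its rank correlation with intake was -0.92 (exact permutation p = 0.00238, 0.0333 after adjustment over 14 relations), and Pearson's r was -0.72 (exact permutation p = 0.0391, 0.448 after adjustment) and -0.69 without LD 1 and LD 2. In HD* animals GAD1 had r = -0.30 and rho = -0.34 (exact permutation p = 0.468 and 0.413). Of the 14 relations 12 had a negative r, none passed for r and that of GAD1 in LD* was the 1 that passed for rho. Leaving out each LD* animal in turn gave a rho of -0.96 to -0.88 (exact permutation p = 0.00278 to 0.0135). LD 1 and LD 2, the lowest in intake, were the 2 animals of cohort 4, so intake and cohort were tied. Tests added after the data were seen gave r = -0.66 on values centred and permuted within cohorts (exact permutation p = 0.0139, the smallest that 72 assignments allow) and rho = -0.81 over the 6 animals without cohort 4 (exact permutation p = 0.0722). LD 5 was also the LD* animal of lowest median TPM, at 9.77.

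**Figure D5:**
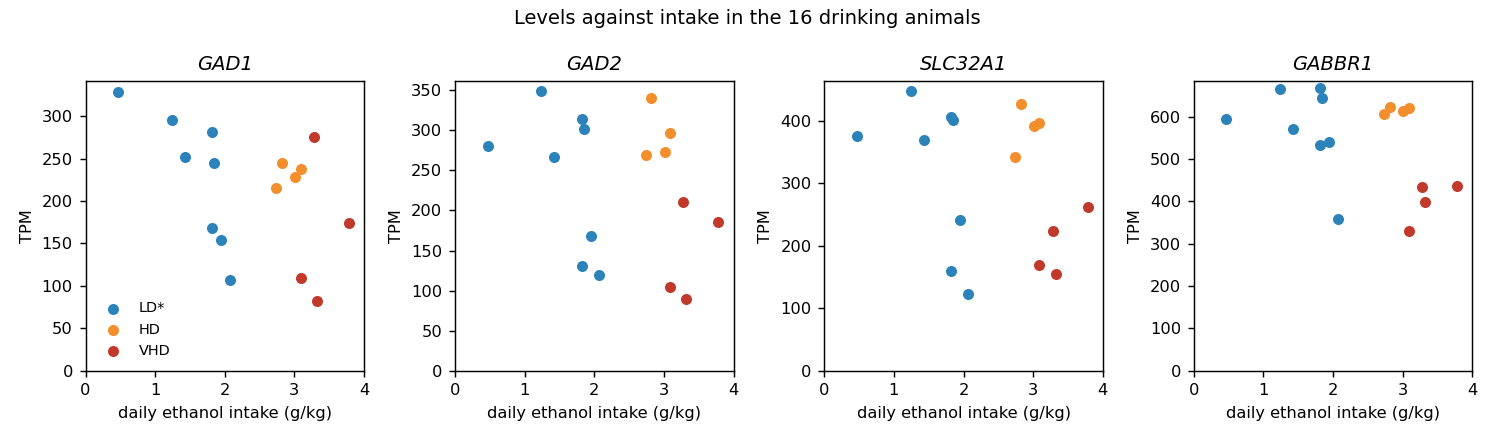
Level in TPM (vertical axis) of GAD1, GAD2, SLC32A1 and GABBR1 against daily ethanol intake in g/kg (horizontal axis) in the 16 drinkers, coloured by group. In LD* animals GAD1 goes from 329 TPM at 0.47 g/kg to 107 TPM at 2.07 g/kg, and the 4 VHD animals lie below the 4 HD animals for GAD2, SLC32A1 and GABBR1.

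Cohort was the only batch in the labels. No gene passed for cohort in a limma model with group (0%), 1140 had an unadjusted p under 0.05 (8.36%), and no member was among those, the lowest p being that of GAD1 (unadjusted p = 0.107). Group differences of the members were also taken within cohorts, 49 in all, and none had an exact permutation p under 0.05, although the smallest possible p was 0.0286 to 0.333. For HD* against controls, GAD1 differed by -0.10 in cohort 5 and -0.094 in cohort 7a, GABBR2 by -0.19 and -0.55, and SLC6A11 by 0.53 and -0.62. For LD* against controls, the differences of GAD1, GAD2 and SLC32A1 were 0.45, 0.60 and 0.73 in cohort 7a and -0.42, -0.35 and -0.36 in cohort 7b, so the signs in the 2 cohorts were opposite. In cohort 7a, HD* minus LD* was negative for all 7 members, from -0.57 for GABBR2 to -0.25 for ABAT.

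The genes whose levels were most like those of the members over the 24 animals, among 9197 genes whose mean reached 10 TPM, are given as a description. The closest by Pearson's r of log2(TPM + 1) were PEG3 for GAD1 (0.96), NFS1 for GAD2 (0.97), TOR3A for SLC32A1 (0.97), PSD2 for SLC6A11 (0.97), CX3CL1 for GABBR1 (0.97) and SPOCK1 for GABBR2 (0.97). ABAT had no such close companion, and its nearest gene, SALL2, reached 0.70. SPOCK1 ranged from 7.08 to 72.6 TPM and PSD2 from 55.6 to 186 TPM across animals.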

How the data were processed

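The deposited table holds TPM that the authors derived from reads aligned to the MacaM assembly with STAR 2.5.2b and counted with HTSeq 0.6.1p1, per the submitters' processing notes. Although the table is named for normalized counts, each column sums to between 999998 and 1000000, so it was treated as TPM. The gene lengths behind it are not given in the sources used here, and accounts of strand and pairing differ between sources. Group, cohort and intake come from the sample labels, and no column was left out.

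On the log2(TPM + 1) scale, where changes of low genes are understated, limma 3.58.1 (R 4.3.3, empirical Bayes, trend) tested 13637 genes averaging 1 TPM or more. One model held the 3 groups, another the 8 HD* animals for VHD against HD, another the 16 drinkers with group and intake, and another group and cohort (F test). Benjamini-Hochberg adjustment covered all genes tested, with a threshold of 0.05. Ratios, within-cohort differences and intake relations had exact two-sided permutation tests, and other correlations 100000 permutations (Python 3.11.15, numpy 2.4.6, scipy 1.17.1, pandas 2.3.3). The limma step was tested on simulated data. Alternatives were a pseudocount of 0.1, filters at 0 and 10 TPM, TMM rescaling (trimming 30% of M and 5% of A), cohort or a marker score as a covariate, only the compared groups, and each animal left out in turn. The cortical marker score, the fits without the 4 animals of lowest median TPM, the levels relative to marker sums and the intake relation of GAD1 within cohorts were added after seeing the data.

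The members, the 21 pathway genes, the marker lists and the ratios were chosen with earlier results of these data known. Named genes are the members, pathway genes with an unadjusted p under 0.05 or among the 2 most abundant of their subgroup, and the gene most like each member. Of 3 endothelial markers 2 were in the table. Genome coordinates and sequences were not used here, and 1 pathway gene, kept in the counts, is not reported here by name.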

Additional observations from a re-analysis of the deposited data

Results flagged for a closer look

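Among 55 groups of values tested for a single animal apart from the rest, 5 held one. The rate of about 1 in 20 from chance alone holds for independent groups of normal values. Here HD* contains the HD and VHD animals, and levels were tested as TPM without logs, so the 5 cannot be set against that rate. For SLC6A11, the astrocytic GABA transporter, control 6 stood at 331 TPM among the controls, LD 2 at 75.9 TPM among LD* animals, and VHD 2 at 226 TPM both among the 8 HD* and among the 4 VHD animals. Control 6 and VHD 2 had summed projection neuron markers of 828 and 3401 TPM and summed astrocyte markers of 8022 and 6570 TPM. Whether these go with the SLC6A11 levels beyond the correlations already given was not tested. For GABBR1, LD 5 stood at 359 TPM, below the other LD* animals, and its median TPM over genes was the lowest of LD*, at 9.77.

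The difference of ABAT between LD* animals and controls was 0.066 in cohort 7a and -0.47 in cohort 7b. The cohort difference of 0.53 had an exact permutation p of 0.0300 over 200 assignments within cohorts, without adjustment. It was the 1 of 21 such interactions under 0.05, near the number that chance alone would give, so a dependence on cohort is not shown. In cohort 7b, ABAT was 339.9, 343 and 334 TPM in the 3 controls and 286, 225 and 228 TPM in the 3 LD* animals (exact permutation p = 0.1, the smallest possible).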

How the results depend on the processing

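No paired analysis was possible because the animals of different groups are unrelated and their numbers only name them, whereas cohort was fitted as a covariate. No gene passed in HD*, LD* and controls under any alternative. In VHD against HD, the count of genes passing was 0 with the projection neuron score as a covariate, 594 with the cortical score and 606 without the 4 animals of lowest median TPM (VHD 4, VHD 3, LD 5 and control 8), the last 2 chosen after seeing the data. It was 476 without VHD 3, 607 without HD 3, 681 without HD 2, 723 without HD 4, 1094 without HD 1 and 4651 without VHD 2. GAD2 lost its call without a filter (limma adjusted p = 0.0546), GABBR1 with TMM rescaling and the cortical score (0.0711 and 0.0509), and both, with SLC32A1, with the projection neuron score. SLC32A1 and GABBR1 kept it without each animal in turn.

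None of the differences that changed sign passed before or after the change. With TMM rescaling, HD* minus controls was 0.077 for GAD2, 0.0021 for ABAT and 0.12 for GABBR1, LD* minus controls 0.037 for GABBR2, and HD* minus LD* 0.030 for SLC32A1 and 0.079 for ABAT. With cohort as a covariate, HD* minus controls was -0.0034 for SLC32A1, and HD* minus LD* 0.31 for SLC6A11 and 0.035 for ABAT. With the projection neuron score, SLC32A1 was -0.053 in HD* minus controls, GAD1, GAD2 and GABBR2 were -0.025, -0.063 and 0.073 in LD* minus controls, and SLC6A11 and ABAT -2.16 and -0.11 in VHD minus HD. With the cortical score ABAT was -0.039 in VHD minus HD. Without the 4 animals, GAD2 and GABBR1 were 0.13 and 0.036 in HD* minus controls, GABBR2 0.12 in LD* minus controls, and GAD2, SLC32A1, SLC6A11 and ABAT 0.066, 0.026, 0.019 and 0.026 in HD* minus LD*. The cause of these changes was not tested.

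Without 1 animal at a time, HD* minus controls was -0.22 to 0.11 for GAD2, -0.014 to 0.26 for SLC32A1 and -0.11 to 0.065 for GABBR1. LD* minus controls was -0.083 to 0.18 for GAD1, -0.063 to 0.23 for GAD2 and -0.22 to 0.19 for GABBR2. HD* minus LD* was -0.28 to 0.011 for GAD2, -0.23 to 0.063 for SLC32A1, -0.45 to 0.0015 for SLC6A11 and -0.079 to 0.039 for ABAT. VHD minus HD was -0.067 to 1.00 for SLC6A11 and -0.095 to 0.18 for ABAT.

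For the log2 ratios, GAD1 to GAD2 in HD* minus LD* was 0.00076 within cohorts. Without the 4 animals, GABBR2 to GABBR1 was 0.41 in VHD minus HD, GAD1 to ABAT 0.081 in HD* minus controls, and SLC32A1 to GAD2 -0.040 in HD* minus LD* and -0.11 in VHD minus HD. Without 1 animal at a time, GAD1 to GAD2 in LD* minus controls was -0.13 to 0.0087, GABBR2 to GABBR1 in VHD minus HD -0.46 to 0.15, GAD1 to ABAT in HD* minus controls -0.17 to 0.084, and SLC32A1 to GAD2 in HD* minus controls 0.15 to 0.25, where leaving out VHD 2 gave an adjusted p of 0.0323 (exact permutation). TPM carry no depth, so counting error limits these values by an unknown amount.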
